A study of Mus musculus with 200 samples.

Results

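The insulin-like growth factor (IGF) axis of the mouse embryo was followed through 10 genes of the 22033 in the expression tables, chosen by symbol: the ligands Igf2 and Igf1, the receptors Igf1r and Igf2r, the receptor-binding adaptor Grb10, the non-coding RNAs H19 and Airn, and the RNA-binding proteins Igf2bp1, Igf2bp2 and Igf2bp3. All embryos were taken whole at embryonic day 11.5, free of extra-embryonic material, and their polyadenylated RNA was read by 3SEQ, a method that sequences the 3′ ends of transcripts. Crosses are written mother first. The 16 F1 embryos came from the inbred strain C57BL/6J (B6) and the wild-derived inbred strain CAST/EiJ (Cast): 8 had a B6 mother and a Cast father (B6xCast) and 8 had a Cast mother and a B6 father (CastxB6). The 154 N2 embryos with a group and genotypes came from backcrosses of B6 to hybrids that all had a B6 mother and a Cast father: 89 had a B6 mother and a hybrid father (B6xF1) and 65 had a hybrid mother and a B6 father (F1xB6). No embryo was treated or carried an engineered allele, and every N2 embryo was either homozygous B6/B6 or heterozygous B6/Cast at an autosomal gene. Each heterozygous N2 embryo therefore had its Cast allele from a known parent, the father in B6xF1 and the mother in F1xB6.

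The F1 embryos came from 2 litters per cross, and stage differed between them: the labels gave 41 to 43 and 46 to 48 somites for CastxB6 litters 1 and 2, and 48 to 50 and 58 to 63 for B6xCast litters 5 and 3. No somite number was given for CastxB6 litter 1 embryo 1, CastxB6 litter 2 embryo 2 and B6xCast litter 3 embryo 3, so these ranges leave them out. The N2 embryos made up 17 B6xF1 litters and 12 F1xB6 litters, with a median of 48 and 50 somites. Between 15703888 and 38234229 reads were counted on genes per F1 embryo and between 245220 and 5370322 per N2 embryo (median 2297774). N2 libraries were spread over 14 lanes of 2 flowcells; 8 lanes held only embryos of B6 mothers, 5 only embryos of F1 mothers and 1 held both. The library of CastxB6 litter 1 embryo 1 stood apart, with a median Spearman correlation to the other F1 libraries of 0.897 where the remaining 15 had 0.923 to 0.969. Summed levels of 6 trophoblast markers were at most 4.48 RPM (reads per 1000000 counted on genes) in any embryo, with 3 of the 6 at 0 in each cross, and all 6 fetal liver markers were detected. In RNA from whole embryos, fewer cells of a type and less RNA per cell cannot be told apart.

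IGF2 and IGF1 are secreted growth factors that signal through the IGF1 receptor, a tyrosine kinase, while the IGF2 receptor binds IGF2 and delivers it to lysosomes. Growth of the fetal mouse depends on this balance, and several of its genes are imprinted, meaning that the copy from one parent is silenced. Igf2 and H19 lie side by side on chromosome 7 and share enhancers; a control region between them, which the insulator protein CTCF binds when it is unmethylated, directs the enhancers to H19 on the maternal chromosome and to Igf2 on the paternal one. On chromosome 17, transcription of Airn from the paternal chromosome, antisense across part of Igf2r, silences the paternal Igf2r. Grb10, on chromosome 11, encodes an adaptor that restrains signalling from the insulin and IGF1 receptors and is expressed from the maternal copy in most tissues.

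In the mm9 build used by the files, Igf2 (chr7:149836673-149852721) and H19 (chr7:149761434-149764048) are both on the minus strand. The control region was visible as sequence: the 5000 bases upstream of H19 held 3 matches to the 14-letter core of the CTCF motif, searched on both strands with any base allowed at its 6th and 9th letters, and no other member had one. Of 21290 windows of this length upstream of genes, 15 (0.0705%) held a match and 2 held at least 2. The matches are printed on the strand of H19, with the core in capitals and the distance from the H19 start; they are shown because the opposite imprinting of Igf2 and H19 is set at this region.
Site 1, chr7:149767933-149767958, 3890 bases upstream: gagttgCCGCGTGGTGGCAGcaaaat
Site 2, chr7:149766663-149766688, 2620 bases upstream: atgctaCCGCGCGGTGGCAGcatact
Site 3, chr7:149766208-149766233, 2165 bases upstream: acgatgCCGCGTGGTGGCAGtacaat
A sequence match is a description and not evidence of binding in these embryos.

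Igf2 and H19 each host a microRNA gene, and the 3 Igf2bp genes are textbook targets of the let-7 family, whose mature forms accumulate as tissues differentiate. The mature sequences, from RefSeq on GRCm38.p6, are given with the seed (bases 2 to 8) in capitals because the seed sets the targets. The 5 sequences have different seeds.
miR-675-5p, from H19: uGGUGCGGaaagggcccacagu
miR-675-3p, from H19: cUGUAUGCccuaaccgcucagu
miR-483-5p, from Igf2: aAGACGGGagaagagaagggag
miR-483-3p, from Igf2: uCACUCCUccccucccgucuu
let-7a-5p: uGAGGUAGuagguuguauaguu
MicroRNAs themselves were not measured.

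The 7-letter match to the let-7 seed, CTACCTC, occurred 4 times in the annotated 3′ untranslated region (3′ UTR) of Igf2bp1, once each in those of Igf2bp2, Igf2bp3, Igf2r and Igf1, and not in those of Igf2, Grb10 and Igf1r. The 3′ UTR annotated for Igf1r was only 197 bases long, against 1304 to 6347 bases for the others, so its lack of a match covers little sequence. Of 18750 3′ UTRs searched on the sense strand, 9.04% held at least 1 match and 0.048% held at least 4. The 4 matches of Igf2bp1 and the single matches of its paralogs are shown with the match in capitals and 10 bases on either side, since the levels of these 3 genes against stage are described further on.
Igf2bp1, match 1: gcgaagtaaaCTACCTCaaggtgtgaa
Igf2bp1, match 2: gtgctattaaCTACCTCagccccagag
Igf2bp1, match 3: aatggatgaaCTACCTCagtcctcaca
Igf2bp1, match 4: tggttttaatCTACCTCttagcaaaac
Igf2bp2: caaataaaagCTACCTCaggtgttttt
Igf2bp3: ttttactcaaCTACCTCaggtattcag

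The first question was which parental copy of each gene was expressed. Reads over strain differences had been turned by the authors into votes for the B6 or the Cast allele, and the B6 allele fraction (BAF) is the B6 share of these votes. A gene was called imprinted where the pooled votes departed from equal expression in both crosses, toward opposite strains, by a binomial test with Bonferroni adjustment at 0.01. In the F1 crosses 5 of the 10 members were called, beside 1.36% of the 11903 genes tested. Of the 162 genes called, 115 were X-linked and 47 autosomal, and all 10 members are autosomal. Embryo sex was not taken into account in this test. Igf2 and Airn were expressed from the paternal copy and H19, Grb10 and Igf2r from the maternal copy.

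Igf2 had a BAF of 0.01001 over 14282 votes in B6xCast and 0.997 over 24446 votes in CastxB6. In single B6xCast embryos the Igf2 BAF was 0.0137, 0.0113 and 0.0113 in litter 3 and 0.00909, 0.00936, 0.00867, 0.0123 and 0.00521 in litter 5. In CastxB6 embryos it was 0.998, 0.997, 0.997 and 0.998 in litter 1 and 0.996, 0.997, 0.998 and 0.998 in litter 2. The crosses stood at opposite ends of the scale in every embryo, so that Igf2, which drives placental and fetal growth, was read almost wholly from the father's chromosome.

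H19, a non-coding RNA with no protein product, had a BAF of 0.981 over 1112627 votes in B6xCast and 0.00118 over 921042 votes in CastxB6. In B6xCast the H19 BAF was 0.999, 0.998 and 0.999 in litter 3 and 0.872, 0.998, 0.999, 0.998 and 0.999 in litter 5, while it lay between 0.000560 and 0.00188 in the 8 CastxB6 embryos. All embryos expressed the mother's copy, and 1 of the 16, B6xCast litter 5 embryo 3, also had a sizeable paternal share, described below. Grb10 had a BAF of 0.991 over 1402 votes in B6xCast (0.969 to 1.00 in single embryos) and of 0.00521 over 1726 votes in CastxB6 (0 to 0.0149). Igf2r had a BAF of 0.932 over 148 votes and 0.0890 over 146 votes, with an adjusted p of 3.75e-22, and single embryos gave 4 to 36 votes. Airn gave only 34 votes in B6xCast, all for the Cast allele, and 69 in CastxB6, all for B6 (adjusted p = 1.39e-06).

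The binomial test treats votes as independent. In a quasi-binomial test that used the spread between embryos, adjusted over all genes in the same way, Igf2 and Grb10 stayed called (adjusted p = 3.46e-08 and 4.20e-04 over the 16 embryos). The adjusted p was 0.266 for Igf2r and 1 for Airn, and for H19 it was 1 with all embryos and 1.02e-08 without B6xCast litter 5 embryo 3. Airn had every vote of a cross for the same allele and so no spread between embryos to use. Its p in this test reflects only the few votes and embryos.

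**Figure D1:**
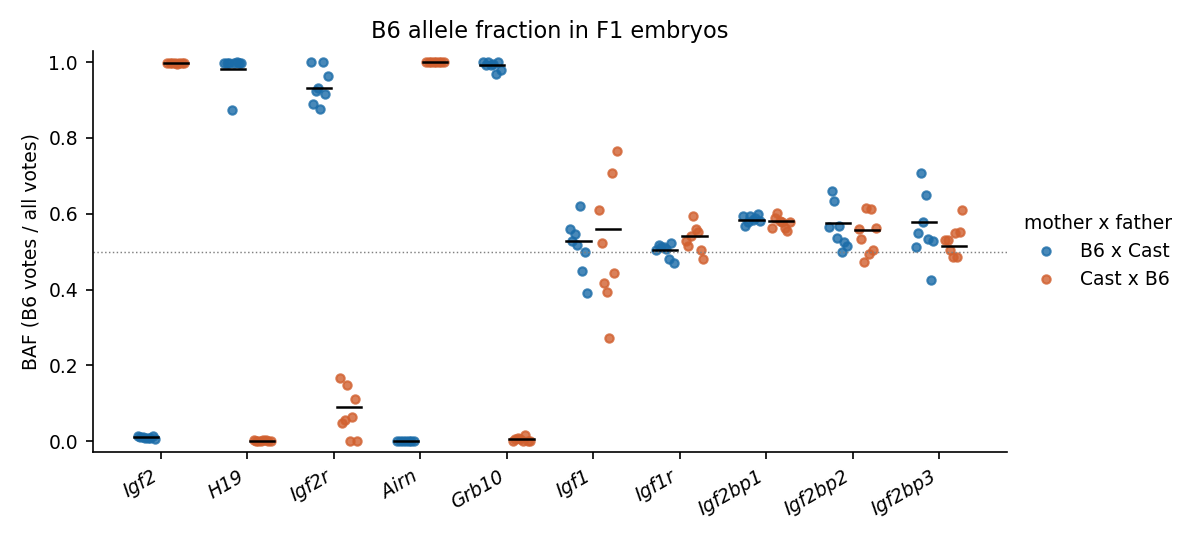
B6 allele fraction (vertical axis, 0 to 1) of the 10 genes in single F1 embryos, with B6xCast embryos in blue, CastxB6 embryos in orange, a black bar for the pooled fraction of a cross and a dotted line at equal expression. Igf2 and Airn sit near 0 in B6xCast and near 1 in CastxB6, H19, Grb10 and Igf2r sit the other way round with 1 H19 point at 0.872, and the remaining 5 genes lie around the middle in both crosses.

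Heterozygous N2 embryos, a separate set of animals, gave the same contrast for the genes with enough votes. Of the 8 members with at least 20 votes for each mother, 3 were called, beside 0.358% of the 9215 autosomal genes tested. Igf2 had a BAF of 0.00643 over 1089 votes in 50 B6xF1 embryos and 0.994 over 640 votes in 29 F1xB6 embryos (adjusted p = 2.82e-179). H19 had a BAF of 0.998 over 551597 votes in B6xF1 and 0.00470 over 242728 votes in F1xB6. Grb10 gave 50 votes for each mother, all for the maternal allele (adjusted p = 1.64e-11, binomial test). In the quasi-binomial test the adjusted p of Grb10 was 0.0125, over the threshold. With every vote for the same parental allele there was no spread between embryos to use, so this p reflects only the few votes and embryos. Igf2r, with 18 of 19 votes for B6 in B6xF1 and 9 of 10 for Cast in F1xB6, and Airn, with 20 of 20 for Cast and 6 of 6 for B6, were under the minimum and were not tested. The 5 genes thus lay on the same side in both generations.

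The completeness of silencing was given by the share of votes from the silenced copy. For Igf2 the maternal share was 0.521 to 1.37% in the B6xCast embryos (mean 1.01% ± 0.263 SD, n = 8) and 0.158 to 0.420% in the CastxB6 embryos (mean 0.261% ± 0.0829 SD, n = 8). The ranges did not overlap, and the difference passed a two-sided exact permutation test over embryos (p = 0.000155, the smallest p that 8 against 8 allow; 0.000777 adjusted over the 5 imprinted members). This test treated embryos that share a litter as independent, so its p makes no allowance for litter. Spread over the total Igf2 level, the maternal share corresponded to 21.8 to 72.2 RPM in B6xCast and 6.47 to 13.7 RPM in CastxB6. The silent allele is B6 in the first cross and Cast in the second. There was no Cast/Cast embryo in which reads of Cast origin miscounted as B6 could be measured. The effect of cross and unequal miscounting of the strains therefore cannot be told apart. Each litter belonged to a single cross and the crosses differed in stage, so litter and stage cannot be told apart from cross either.

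The other imprinted members did not pass this test of difference between crosses. The silent share of Grb10 was 0 to 3.13% in B6xCast and 0 to 1.49% in CastxB6 (adjusted p = 0.604, exact permutation test), that of Igf2r was 0 to 12.5% and 0 to 16.7% (adjusted p = 0.871), and Airn had no vote from the maternal copy in any embryo. For Airn, 0 of 34 votes and 0 of 69 votes allow a maternal share of up to 8.82% and 4.35%; limits and intervals here cover counting error only. The H19 share was 0.0910 to 0.231% in 7 B6xCast embryos and 0.0560 to 0.188% in the 8 CastxB6 embryos. With all 8 B6xCast embryos the adjusted p for H19 was 0.503, and without litter 5 embryo 3 it was 0.671.

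In B6xCast litter 5 embryo 3 the paternal Cast copy gave 12.8% of 153640 H19 votes. Applied to the total level of 12450 RPM, the highest of all F1 embryos, this was 1589 RPM of H19 with the Cast base where the other B6xCast embryos had 9.99 to 24.9 RPM. The maternal part, 10861 RPM, lay within the 9956 to 11852 RPM of the others. Igf2 of the same embryo had an ordinary level (3905 RPM, others of the litter 3657 to 4561 RPM) and an ordinary maternal share (0.909%). Of 15 autosomal genes called imprinted with at least 200 votes in every B6xCast embryo, the silent share of this embryo exceeded that of all others in 3, and by over 1 percentage point in 2: H19 and, named after its values were seen, Meg3, a maternally expressed non-coding RNA of another imprinted cluster (3.23%, others 0.0509 to 0.156%). The median share of the other embryos ran from 0 to 47.9% over these 15 genes, so some were read from both copies in B6xCast embryos. The number of genes in which a loss of silencing could show was therefore smaller than 15. The library of this embryo was like the others in its correlation with them (median 0.969), and contamination of the embryo or of its library by other tissue was not tested.

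Homozygous N2 embryos, which lack a Cast allele, gave the background of Cast votes at the same positions. For H19 in B6xF1, Cast votes from the silent paternal copy were 0.159% of 551597 in 50 heterozygous embryos and 0.0299% of 490713 in 39 homozygous embryos, a difference of 0.129 percentage points (permutation test over embryos, p = 1e-05, the smallest 100000 resamples can give). The same held within flowcell 1 (p = 4e-05) and flowcell 2 (p = 9e-05), and for the mean of the shares of single embryos (0.203% against 0.0783%, p = 0.0131). A low level of paternal H19 votes above the background was thus measured, although the highest homozygous embryo (1.46%) nearly reached the highest heterozygous one (1.49%).

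For Igf2 in F1xB6, 4 of 640 votes in 29 heterozygous embryos came from the silent maternal Cast copy (0.625%), against 0 of 736 in 36 homozygous embryos, which allows a share of up to 0.408% (permutation test, p = 0.00868). These 4 votes did not carry the result further: p was 0.0819 for the mean of embryo shares (11 and 13 embryos with at least 20 votes), 0.108 within flowcell 1 and 0.0544 within flowcell 2. The background was also not 0 in all embryos without a Cast allele: the 39 homozygous B6xF1 embryos had 2 Cast votes of 739 for Igf2 (0.271%). Grb10 had 0 silent votes of 50 in heterozygous and 0 of 38 in homozygous embryos, which at this depth allows a share of up to 6.00%. In F1xB6 the silent paternal H19 allele is B6, for which no background could be measured; its share was 0.149 to 4.56% over 29 embryos (median 0.351%), with 2 embryos over 1%, at 4.56% and 1.29%. The highest of the 29 was thus below the 12.8% of the F1 embryo. Homozygous F1xB6 embryos, whose lanes also held heterozygotes that express H19 from the Cast copy, had Cast shares of 0.0317 to 0.587% (median 0.102%), against a median of 0.0269% in homozygous B6xF1 embryos; the part of reads exchanged between libraries of a lane in these shares was not tested.

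**Figure D2:**
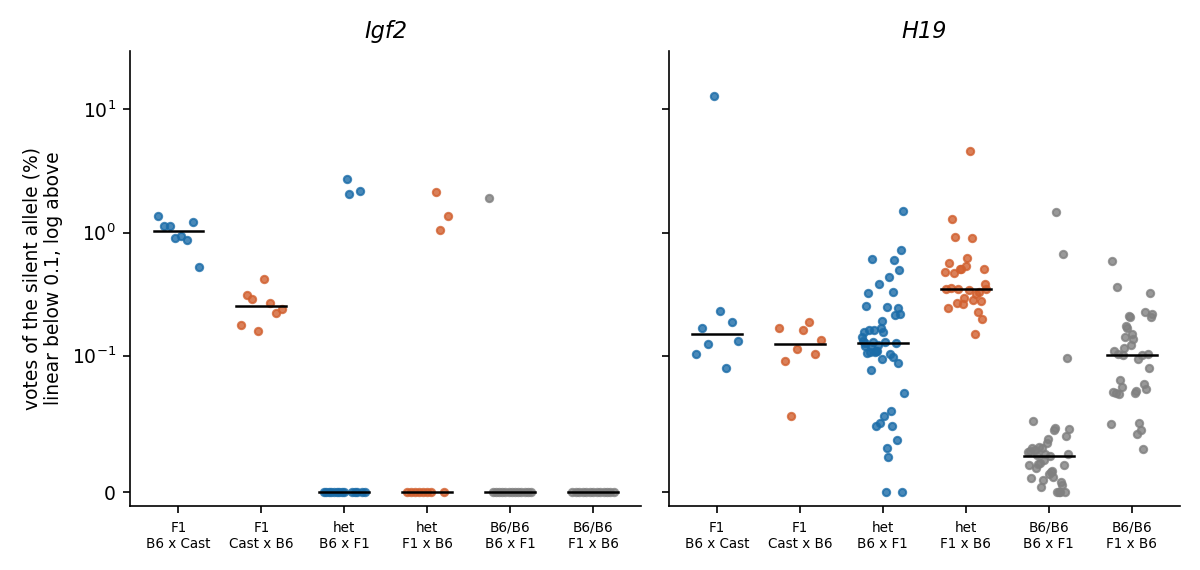
Share of votes from the silenced parental allele (percent, linear below 0.1 and log above) of Igf2 and H19 in single F1 embryos, in heterozygous (het) N2 embryos and, as Cast votes, in homozygous B6/B6 N2 embryos, by cross, with a black bar at the median. N2 embryos need at least 20 votes; the 8 B6xCast points of Igf2 (0.521 to 1.37%) all lie above the CastxB6 points (0.158 to 0.420%), and 1 B6xCast point of H19 stands at 12.8%.

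The other 5 members were read from both copies. In the F1 crosses Igf1 had a BAF of 0.529 in B6xCast and 0.559 in CastxB6, the receptor Igf1r 0.503 and 0.540, Igf2bp1 0.584 and 0.581, Igf2bp2 0.574 and 0.557 and Igf2bp3 0.577 and 0.515. None of these 5 was called imprinted. A difference between the strains' alleles was tested by pairing the B6 and Cast votes, scaled to library depth, over F1 and heterozygous N2 embryos (Bonferroni under 0.01, and pooled BAF outside 0.45 to 0.55). Of 8 members tested, Igf2bp1 was called, beside 18.9% of the 9084 genes tested.

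Igf2bp1, which binds and stabilises Igf2 and other messenger RNAs in the embryo, had a pooled BAF of 0.586 over 93 embryos (adjusted p = 5.90e-24). In B6xCast embryos the Igf2bp1 BAF was 0.594, 0.567 and 0.579 in litter 3 and 0.595, 0.584, 0.588, 0.599 and 0.580 in litter 5. In CastxB6 embryos it was 0.562, 0.588, 0.602 and 0.581 in litter 1 and 0.578, 0.563, 0.555 and 0.577 in litter 2. In 16 of 16 F1 embryos more Igf2bp1 votes were for B6 than for Cast, whether the B6 copy was maternal or paternal. In heterozygous N2 embryos with at least 20 votes the median was 0.597 (0.471 to 0.693, 39 embryos) for B6 mothers and 0.602 (0.478 to 0.700, 38 embryos) for F1 mothers. Igf1, the main IGF ligand of growth after birth, had a pooled BAF of 0.551 and was called only with Benjamini-Hochberg adjustment. Igf2bp2, with a BAF of 0.574 and 0.557 in the F1 crosses, had 0.494 and 0.518 in the N2 embryos.

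The second question was how much of each transcript an embryo held. F1 levels were compared between B6xCast litter 5 (n = 5) and CastxB6 litter 2 (n = 4), the litters nearest in somite number, by edgeR's quasi-likelihood test on counts with Benjamini-Hochberg adjustment. Only Grb10 of the 10 members passed, and it was higher with a B6 mother. Over the 14493 genes tested, 10.7% passed, and 4.62% passed and were higher with a B6 mother. With 1 litter per cross, litter and cross cannot be told apart in this comparison, nor can sequencing run: the labels give runs gaIIx and hs1 for both B6xCast litters and for CastxB6 litter 1, and hs1 and hs2 for CastxB6 litter 2.

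Grb10 stood at 611, 558, 409, 433 and 426 RPM in B6xCast litter 5 and at 179, 236, 204 and 159 RPM in CastxB6 litter 2. In B6xCast litter 3 it was 538, 540 and 380 RPM, and in CastxB6 litter 1 it was 411, 197, 184 and 202 RPM. The embryos of CastxB6 litter 1 shared the runs of the B6xCast litters. Of these, 3 were at 184 to 202 RPM and embryo 1, at 411 RPM, lay within the 380 to 611 RPM of B6xCast. The part of run and stage in the Grb10 difference was not tested. Apart from CastxB6 litter 1 embryo 1, whose library stood apart, all B6xCast embryos lay above all CastxB6 embryos. The log2 difference between the matched litters was 1.39 ± 0.132 (SE; adjusted p = 0.00107), and it was 1.05 over all 16 embryos (adjusted p = 0.0012) and 1.28 without the library that stood apart (adjusted p = 1.2e-05). Grb10 is read from the maternal copy, so the crosses set the B6 allele of this inhibitor of growth signalling against the Cast allele, in embryos of different mothers.

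Igf2 was at 3905, 4561, 4529, 3657 and 4190 RPM in B6xCast litter 5 and at 3259, 4551, 3219 and 2708 RPM in CastxB6 litter 2. These ranges overlapped, and the log2 difference of 0.35 ± 0.135 did not pass (adjusted p = 0.108); without CastxB6 litter 2 embryo 3 it was 0.47 (adjusted p = 0.0181). Igf1r, the signalling receptor, had a log2 difference of 0.32 ± 0.187 (adjusted p = 0.279) that also passed without the same embryo, at 0.52 (adjusted p = 0.0432). H19 (0.18 ± 0.123, adjusted p = 0.359), Igf1 (-0.26 ± 0.102, adjusted p = 0.115) and Igf2bp2 (-0.40 ± 0.226, adjusted p = 0.260) did not pass. Igf2r, Airn, Igf2bp1 and Igf2bp3 differed by at most 0.25 on the log2 scale, with adjusted p of 0.523 or more.

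Over all 16 F1 embryos, where the crosses also differ in stage and 3788 genes passed in all, Airn (0.59, adjusted p = 0.0291), Igf2bp1 (-0.54, adjusted p = 0.0163), Igf2bp2 (-0.88, adjusted p = 0.0159) and Igf2bp3 (-0.45, adjusted p = 0.0397) passed as well. Igf2bp3 had the opposite sign from the matched litters (0.09 ± 0.102). Within a cross, litters that differed in stage, and in CastxB6 also in sequencing run, were compared by exact permutation tests, 20 in all, of which none passed adjustment (lowest adjusted p = 0.102; the smallest p is 0.0286 for 4 against 4 and 0.0357 for 3 against 5). Igf2bp1 was at 265, 301 and 308 RPM in B6xCast litter 3, of 58 to 63 somites, and at 390 to 486 RPM in litter 5, of 48 to 50 somites, without overlap (p = 0.0357, exact). Igf2bp3 was at 368 to 438 RPM in CastxB6 litter 1 and at 277 to 294 RPM in the older litter 2 (p = 0.0286, exact).

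Other members also separated such litters. Igf2 was at 5268, 5032 and 5516 RPM in B6xCast litter 3 and at 3657 to 4561 RPM in litter 5, Igf1 at 58.5 to 62.4 RPM and 42.8 to 45.3 RPM, and Airn at 11.7 to 12.9 RPM and 5.05 to 11.7 RPM, each higher in the older litter (p = 0.0357, exact). In CastxB6, H19 was at 7675 to 8058 RPM in litter 1 and at 8994 to 10996 RPM in the older litter 2, while Igf2r was at 77.6 to 100.1 RPM and 47.4 to 76.03 RPM (p = 0.0286, exact). Igf2r was also higher in litter 3 (70.03 to 103 RPM) than in litter 5 (45.3 to 76.6 RPM) of B6xCast in mean, but these ranges overlapped. The order for Igf2r was therefore higher in the older litter of one cross and higher in the younger litter of the other.

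**Figure D3:**
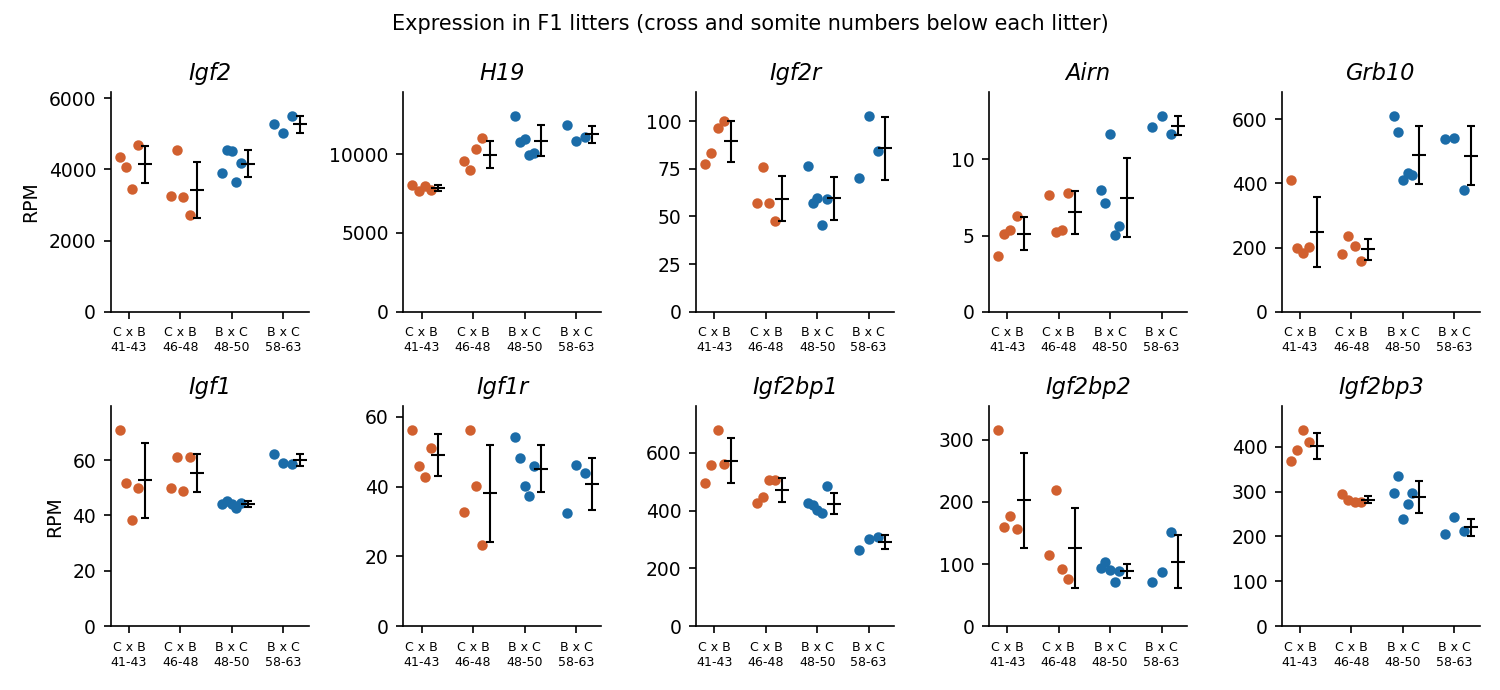
Level (RPM, linear axis from 0) of the 10 genes in single F1 embryos, by litter in order of somite number, with CastxB6 (C x B) in orange, B6xCast (B x C) in blue and black bars for mean and SD (n = 4, 4, 5 and 3). Grb10 lies at 380 to 611 RPM in the B6xCast litters and, but for 1 embryo at 411 RPM, at 159 to 236 RPM in the CastxB6 litters.

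N2 levels were compared between mothers by a two-sided rank-sum test on RPM with Bonferroni adjustment at 0.01. None of the 9 members with a mean of at least 5 RPM passed, beside 5.03% of the 9733 autosomal genes tested, and 4 of the 9 had an unadjusted p under 0.05. In edgeR and in DESeq2, Igf2 and Igf2bp2 passed with Benjamini-Hochberg adjustment, where 2548 and 2917 autosomal genes passed in all. Airn, with medians of 3.82 and 4.57 RPM, was under the minimum. Mother is nearly confounded with lane and litter, and the embryos of 1 litter share a mother and often a lane.

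Igf2 was at 206 to 4506 RPM (median 1626) in the 89 B6xF1 embryos and at 219.9 to 5047 RPM (median 2596) in the 65 F1xB6 embryos, with a Bonferroni-adjusted p of 0.0662 by the rank-sum test and an edgeR log2 difference, B6 mother minus F1 mother, of -0.69 (adjusted p = 4.0e-04). With somite number and flowcell as covariates in edgeR the Igf2 difference was -0.05 (adjusted p = 0.803). Medians for the B6 mothers were 2030 RPM on flowcell 1 and 1314 RPM on flowcell 2, and those for the F1 mothers were 3559 and 1257 RPM. The level of Igf2 was lower on flowcell 2 for both mothers, and there the medians of the mothers lay close together. Lane medians ran from 370 to 3731 RPM over 9 lanes with B6 mothers and from 1241 to 4508 RPM over 6 lanes with F1 mothers.

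Igf2bp2 had a median of 63.0 RPM with B6 mothers and 141 RPM with F1 mothers. Its edgeR difference was -0.58 (adjusted p = 0.00198) and grew to -1.02 with somite number and flowcell as covariates (adjusted p = 7.5e-07). With these covariates 6224 autosomal genes passed in all. By flowcell the medians of Igf2bp2 were 62.5 and 68.6 RPM for B6 mothers and 80.9 and 184 RPM for F1 mothers, lower with B6 mothers on both, but neither flowcell alone passed the rank-sum test (adjusted p = 1 in each).

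For 2 members the covariates, with which 6224 autosomal genes passed, turned the sign. H19 had medians of 11913 and 12365 RPM and an edgeR difference of -0.02 (adjusted p = 0.897) without covariates and of 0.33 (adjusted p = 0.0019) with them. Grb10 had medians of 147 and 143 RPM and a difference of 0.01 (adjusted p = 0.990) without and -0.42 (adjusted p = 0.00357) with covariates. Grb10 medians by flowcell were 121 and 243 RPM with B6 mothers and 98.4 and 446 RPM with F1 mothers, so that this gene was higher on flowcell 2 for both mothers while Igf2 was lower there. The part of flowcell, lane and litter in these differences was not tested further.

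Somite number, the count of body segments, served as the measure of stage within embryonic day 11.5. It was correlated with RPM over the 147 N2 embryos that had one (Spearman, Benjamini-Hochberg at 0.05, each correlation a description over embryos that share litters and lanes). Of the 9 members, 3 were called, beside 22% of the 10007 genes tested: H19 rose (rho = 0.27), and Igf1r (rho = -0.24) and Igf2bp1 (rho = -0.23) fell. With lane removed from the ranks, 2 of the 9 were called, beside 11.5% of all genes: Igf2bp1 fell (rho = -0.35) and Igf2 rose (rho = 0.25), while H19 (0.14) and Igf1r (-0.07) were no longer called. Igf2bp1 was the one member called in the same direction under both.

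Igf2bp1 in F1xB6 had a median of 432 RPM at 45 to 49 somites (25 embryos) and 385 RPM at 50 or more (35 embryos). In B6xF1 its median was 555 RPM under 45 somites (9 embryos), 561 RPM at 45 to 49 (43 embryos) and 472 RPM at 50 or more (33 embryos). The ranges of these classes overlapped widely, and within the embryos of either mother the Igf2bp1 correlation was not called (rho = -0.15 and -0.26). With lane in a linear model its slope was -0.0804 ± 0.0178 log2 units per somite with B6 mothers and 0.00621 ± 0.0289 with F1 mothers. The difference between these slopes, tested in the same model, was not called (adjusted p = 0.526). The older of the B6xCast litters also had the lower Igf2bp1 level, as given above.

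Within the embryos of B6 mothers, 5 of 9 members were called, beside 51.6% of all genes: H19 rose (rho = 0.42) and Igf1r (-0.37), Igf1 (-0.26), Igf2bp2 (-0.60) and Igf2bp3 (-0.37) fell. Within the embryos of F1 mothers 1 of 9 was called, Igf2r (0.41), beside 23.1%. Igf2bp2 had medians of 179, 76.2 and 51.7 RPM in the 3 stage classes with B6 mothers and of 122 and 181 RPM in the 2 classes from 45 somites on with F1 mothers, thus in opposite directions. The difference in slope between mothers was tested with lane in the model: it was 0.10 ± 0.0459 log2 units per somite for Igf2bp2 (adjusted p = 0.583), and none of the 9 members was called, beside 0.00999% of all genes (1 of 10007). Of the 9, Igf2bp1 and Igf2bp2 had an unadjusted p under 0.05. Without lane in the model, 6 members and 4493 genes were called.

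Fetal liver and muscle markers moved with stage too: all 6 fetal liver markers and 4 of 5 striated muscle markers rose with somite number, with and without lane. Over all genes 22% were called in either direction, and 11.5% with lane removed. Among 4 neuronal markers tested only Tubb3 rose, with and without lane, which is near the 22%. The part of tissue composition in the member correlations was not tested. Allele use was not called with stage: of 4 members with enough votes in 20 or more heterozygous embryos, none was called at a q of 0.1, beside 0.297% of 3370 genes, and Igf2 (rho = 0.45, 28 embryos, q = 0.477) and H19 (rho = -0.28, 75 embryos, q = 0.469) had an unadjusted p under 0.05. Both of these values mix mothers whose BAFs are opposite by imprinting. Within B6 mothers 0 of 3 members were called, beside 2.54% of genes, and within F1 mothers 0 of 3, beside 0.0892%; H19 there had rho of 0.12 and -0.14.

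**Figure D4:**
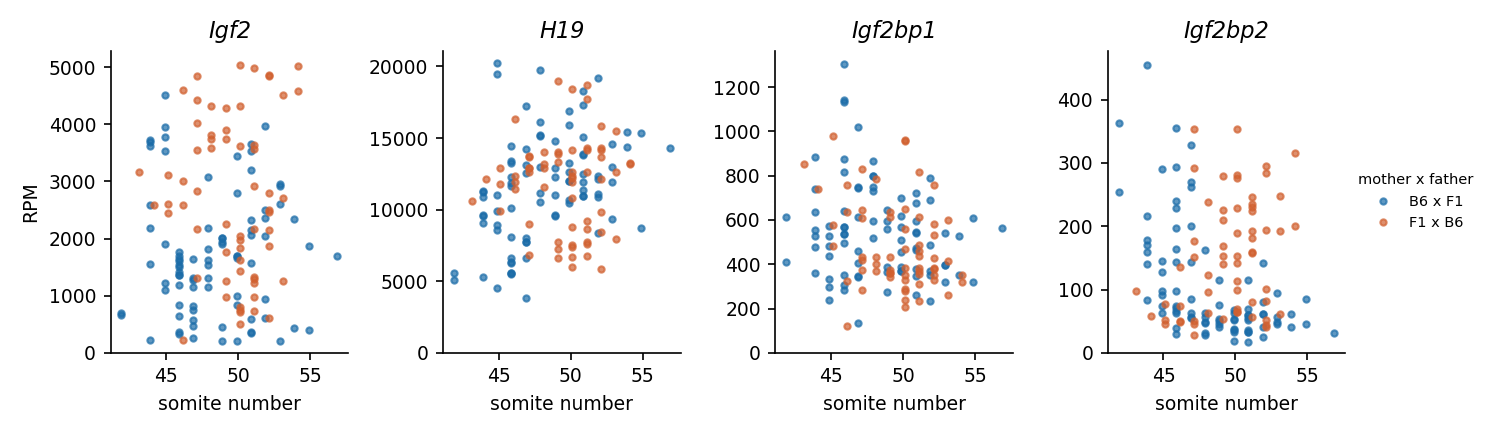
Level (RPM, linear axis from 0) of Igf2, H19, Igf2bp1 and Igf2bp2 against somite number in the 147 N2 embryos that had one, with B6xF1 embryos in blue and F1xB6 embryos in orange. Igf2bp2 falls with somite number among the embryos of B6 mothers (rho = -0.60) and does not among those of F1 mothers (rho = 0.31), and Igf2 values spread widely at most somite numbers.

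Whether carrying a Cast allele changed the total level of a gene was asked at the gene's own genotype, on log2(RPM + 1) after lane and somite number, with a rank-sum test at a q of 0.01. Of 9 members, Igf2bp3 was called, beside 18.3% of the 9733 genes tested. Igf2bp3 had medians of 156 RPM in heterozygous and 126 RPM in homozygous embryos of B6 mothers and of 162 and 149 RPM in those of F1 mothers, and heterozygotes were higher by 0.17 on the log2 scale (q = 0.00657). Within either mother alone it was not called (0.16, q = 0.114, and 0.15, q = 0.258). Igf2bp1 was lower in heterozygotes by a difference of -0.17 that just missed the threshold (q = 0.0107) and passed with 15 principal components as covariates (-0.25, q = 4.6e-13). The sign of this Igf2bp1 difference and its BAF of 0.586 both put the Cast allele at the lower level. For Igf2bp3 the votes gave no single direction. Its BAF was 0.577 and 0.515 in B6xCast and CastxB6, toward B6, and 0.471 and 0.410 in B6xF1 and F1xB6 heterozygotes (119 and 39 votes), toward Cast.

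For imprinted genes the parent of origin decides whether the Cast allele is the one read. In B6xF1 heterozygotes the expressed Igf2 copy is Cast and the expressed Grb10, H19 and Igf2r copies are B6, while in F1xB6 heterozygotes it is the other way round. The genotype effect (heterozygous minus homozygous, log2 ± SE) was therefore compared between mothers by an interaction test. None of the 9 members was called, beside 0.0103% of all genes (1 of 9733), and 1 of the 9, Igf2r, had an unadjusted p under 0.05.

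For Grb10 the effect was 0.09 ± 0.133 in B6xF1, where the Cast copy is silent, and 0.03 ± 0.144 in F1xB6, where the Cast copy is the one expressed, with a 95% interval of -0.25 to 0.32 for the latter. Igf2 had -0.24 ± 0.160 in B6xF1, where the expressed copy is Cast, and 0.11 ± 0.184 in F1xB6. H19 had -0.07 ± 0.0626 and -0.10 ± 0.0719. Igf2r had -0.00 ± 0.134 in B6xF1 and -0.46 ± 0.153 in F1xB6, where the expressed copy is Cast; the difference of -0.46 ± 0.201 did not pass (adjusted p = 0.934). Median Igf2r levels were 29.1 RPM in heterozygous and 38.6 RPM in homozygous F1xB6 embryos, and 39.1 and 41.6 RPM in B6xF1 embryos.

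**Figure D5:**
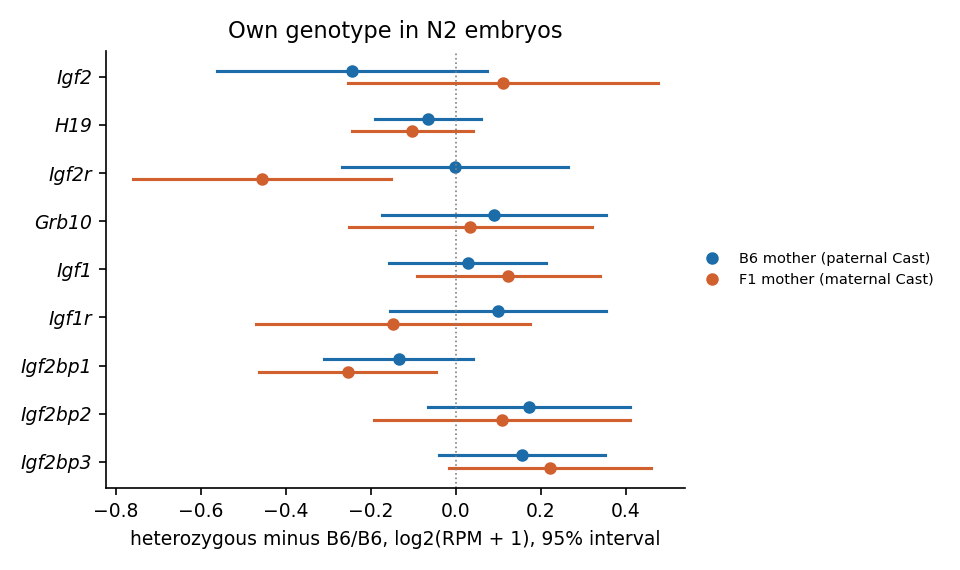
Difference between heterozygous and homozygous B6/B6 N2 embryos (log2(RPM + 1), horizontal axis) at each gene's own genotype, with its 95% interval, for B6 mothers (blue, paternal Cast allele) and F1 mothers (orange, maternal Cast allele). The intervals of both mothers overlap for all 9 genes; those of Igf2r and Igf2bp1 with F1 mothers lie below 0, and those of Grb10 span 0 for both mothers.

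Of other genes of the axis, 0 of 14 IGF binding proteins and their proteases passed between the matched F1 litters, beside 10.7% of all genes. Among N2 embryos, 1 of 7 tested was called between mothers, beside 5.03% of all genes. This was Igfbp4, lower with B6 mothers (median 152 against 264 RPM, rank-sum test, adjusted p = 0.00196). With somite number 3 of 7 rose (22% of all genes called in either direction), also with lane removed (11.5%): the protease Htra1 (rho = 0.40), Igfbpl1 (0.33) and Igfbp3 (0.27). By own genotype 2 of 7 were called (18.3% of all genes), Igfbp2 higher (0.34) and Igfbpl1 lower (-0.12) in heterozygotes, and 3 of 12 had a strain bias of the alleles (18.9% of all genes), all toward Cast: Igfbp2 (BAF 0.356), Igfbp7 (0.387) and Igfbp4 (0.414). The median somite correlation of this list was 0.12, against -0.02 over all genes.

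Of 26 tested genes of insulin and receptor signalling, 5 passed between the F1 litters (10.7% of all genes), of which 4 are given. Tsc2, a brake on mTOR (0.59 ± 0.0966), and the insulin receptor relative Insrr (0.83 ± 0.176) were higher in B6xCast; the receptor substrate Irs4 (-1.24 ± 0.299) and the S6 kinase Rps6kb1 (-0.45 ± 0.129) were lower. With somite number 3 of 17 rose (22% of all genes called), Pik3r2 (rho = 0.33), Akt1 (0.27) and Tsc2 (0.23), and none was called with lane removed. By own genotype 5 of 17 were called (18.3% of all genes): the adaptor Grb14, a paralog of Grb10, was higher in heterozygotes (0.60), and Foxo1 (-0.25), Rps6kb1 (-0.36), Akt1 (-0.23) and Grb7 (-0.15) were lower; Grb14 also had a BAF of 0.267, Rps6kb1 of 0.678 and Eif4ebp1 of 0.608.

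Genes regulated by let-7 or acting beside the Igf2bp proteins in embryonic tissue formed a further list. Of 7 tested, 4 fell with somite number and none rose, beside 22% of all genes called in either direction: Arid3b (rho = -0.57), Lin28a, which blocks let-7 maturation (-0.45), the cyclin Ccnd2 (-0.43) and Arid3a (-0.32). All 4 stayed called with lane removed (11.5% of all genes) and Ccnd1 joined them (-0.24); the list median was -0.32, or -0.25 with lane removed, against -0.02 and 0.02 over all genes. A strain bias of the alleles was called at Hmga2 (BAF 0.630) and Dicer1 (0.324) of 7 (18.9% of all genes). None of 12 passed between the F1 litters, beside 10.7% of all genes.

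Of the genes that neighbour the imprinted members, none of 17 tested was called imprinted in F1, beside 1.36% of all genes. In N2 embryos 1 of 14 was called, beside 0.358%: Ddc, the dopa decarboxylase gene beside Grb10. Its BAF was 0.338 in B6xF1 and 0.689 in F1xB6 (binomial test, adjusted p = 1.79e-06), thus a partial paternal bias. With somite number 4 of 10 were called (22% of all genes): Tnnt3 and Lsp1, near H19, rose (rho = 0.46 and 0.27) and Mrpl18 and Tcp1, near Igf2r, fell (-0.27 and -0.22), and only Tnnt3 was called with lane removed. By own genotype 3 of 10 were called (18.3% of all genes): Tnnt3 (0.40) and Th (0.29) were higher and Lsp1 (-0.15) lower in heterozygotes. Strain bias was called at Mrpl18 (BAF 0.0532), Acat2 (0.434), Tnnt3 (0.384) and Pnldc1 (0.655) of 14 (18.9% of all genes).

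Among marker lists, summed RPM of fetal liver markers was 1210 to 3543 in B6xCast and 542 to 1446 in CastxB6 embryos, of 4 neuronal markers 992 to 1257 and 635 to 962, and of 5 striated muscle markers 872 to 1505 and 749 to 952. The sums cover all litters, so cross and stage cannot be told apart in them, and the liver and muscle ranges overlapped between crosses. Between the matched litters 3 of 5 muscle, 2 of 4 neuronal and 0 of 6 liver markers passed, beside 10.7% of all genes. The part of these tissues in the Grb10 difference was not tested. Of 3 decidual markers, of which 1 was detected in CastxB6 embryos, Cryab made up most of the sum (30.2 to 76.7 RPM in F1 embryos). Cryab rose with somite number in N2 embryos (rho = 0.31, and 0.37 with lane removed), and the part of maternal tissue in this sum was not tested. The 4 visceral endoderm markers summed to 3.27 to 9.67 RPM.

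Levels of the members moved together only in part over the 154 N2 embryos, given here as Spearman correlations of log2(RPM + 1) after lane, over embryos that share litters. Igf2 and H19 had rho = 0.20, Igf2 and Igf2r 0.40, Grb10 and Igf2bp2 0.47, and H19 and Igf2bp3 -0.44. The genes most like Igf2 among the 10007 were Maf1 (0.81), Uba1 (0.77) and Phb2 (0.77), and those most like H19 were Cc2d1a (0.73), Ndufs7 (0.72) and Fkbp8 (0.72). Among those most like Grb10 were Lsm14a (0.64) and Peg3 (0.64), most like Igf2r were Lass2 (0.69), Ybx1 (0.68) and Lars (0.68), and most like Igf2bp1 were Acvr2b (0.67), Pbx2 (0.67) and Chd4 (0.66). No member was among the 3 nearest genes of these 5.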

How the data were processed

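Counts of reads per gene, votes per allele and genotype codes per gene were used as deposited. Per the labels and the study's methods, the authors sequenced 3′ ends, trimmed polyA stretches, used Bowtie2 to align reads once to mm9 and once to an mm9 copy carrying the Cast SNPs, discarded repetitive reads and counted reads per gene. The votes are estimated counts, deposited by the authors, of reads that carry the B6 or the Cast base, partly fractional, and were rounded for binomial tests. Genotypes came from the authors' hidden Markov model, and whether counting used strand is not given in the sources used here, so reads of Igf2r and the antisense Airn, and of Igf2 and its antisense transcript, may be mixed. The labels give 2 runs per F1 embryo and the tables hold 1 column for each embryo. RPM is the count per 1000000 counted on genes in the embryo. The authors' removal of retrotransposed genes was not repeated, and 14 columns of N2 embryos were left out: 8 whose labels give no group and 6 grouped embryos for which no genotypes were used here.

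Tests were fitted over all genes (binomial and rank tests in SciPy 1.17.1, edgeR 4.0.16 with TMM and filterByExpr, DESeq2 1.42.0 in R 4.3.3, Python 3.11.15) with at least 20 votes for allele tests, a mean of at least 5 RPM for N2 levels and a pseudocount of 1. The scripts were first checked on simulated data. The study's PEER normalization was replaced by lane and somite number as covariates. The named genes were the 10 members, up to 6 passing genes of each list and comparison in order of p, and the 3 genes most like each of 5 members. Of these, 2 genes are not reported here. Members, lists and markers were chosen with earlier results of these data known. Replicates are separate embryos that share litters. Upstream windows and 3′ UTRs came from GENCODE on mm9, using the longest 3′ UTR per gene. The exact tests of silent shares and litters and the slope test between mothers were added after seeing the data.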

Additional observations from a re-analysis of the deposited data

Results flagged for a closer look

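In 36 groups of 8 F1 embryos, the highest or lowest embryo was compared with the others by Dixon's criterion, by which chance marks about 1 group in 20. Of these, 3 had an embryo far from the rest. The H19 BAF of B6xCast litter 5 embryo 3 was 0.872, where the other 7 were between 0.998 and 0.999. Grb10 of CastxB6 litter 1 embryo 1, whose library stood apart, was at 411 RPM, where the other 7 were between 159 and 236 RPM. Igf2bp2 of B6xCast litter 3 embryo 4 was at 152 RPM, where the other 7 were between 71.3 and 103 RPM.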

How the results depend on the processing

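In the binomial test, the F1 imprinting calls of Igf2, H19, Igf2r and Grb10 held at 50 votes per cross, where Airn has too few, and all 5 without either embryo that stood apart (tried after seeing the data). Genes called by the quasi-binomial test numbered 16, and 13 without B6xCast replicate 4, against 162. Between the F1 litters, 1549 genes passed, and 546 to 2210 when 1 embryo was left out; the count moved by over 1.5 times without B6xCast replicate 5 (890), 6 (546), 7 (800) or 8 (690) and without CastxB6 replicate 5 (917) or 7 (983), and Grb10 passed in all of these. All F1 embryos gave 3788 genes, 3415 without the library that stood apart (also tried after seeing the data), and Igf2bp3 turned to -0.45. By mother, 490 genes passed, against 2548 by edgeR, 6224 by edgeR with somite number and flowcell (where H19 turned to 0.33 and Grb10 to -0.42), 2917 by DESeq2, 3073 by Benjamini-Hochberg, 212 and 24 on flowcells 1 and 2, and 0 over litter means (rank-sum test, 1279 at an unadjusted p under 0.05). By somite number, 2206 passed, against 174 over litter means, 1151 with lane removed and 5161 within B6 mothers. By own genotype, 1778 passed, against 1185 without covariates, 2733 with 15 principal components and 895 and 972 within B6 and F1 mothers. The interaction with mother called 5 genes with a pseudocount of 0.1, and that of somite number 4493 without lane. Allele bias called 1105 in F1 embryos alone and 2889 by Benjamini-Hochberg, against 1714. BAF by somite number called 63 within B6 mothers, 2 within F1 mothers, 2 with lane removed and 16 at 10 votes, against 10. The silent Igf2 excess was 0.414 percentage points over embryo means and 0.503 and 0.680 on flowcells 1 and 2, none past 0.05. Fewer samples enter where embryos, flowcells or mothers are left out; otherwise the cause was not tested. No paired analysis was possible because the labels number no replicates: the numbers used here follow accession order and only name embryos. Few votes limit Igf2r, Airn and N2 Grb10.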
